A study of Mus musculus with 90 samples.

Results

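The LIF and IL-6 family was followed through 8 genes, 3 cytokines (Lif, Il6 and Il11) and 5 receptor chains (Lifr, Il6st, Il6ra, Il11ra1 and Osmr). They were taken by name, as the rows of the deposited count table whose Ensembl identifiers map to these symbols, and make up 8 of its 53697 rows. RNA came from YUMM2.1, a mouse melanoma line, and CT26, a mouse colorectal cancer line, and was profiled by a 3′ tag method (digital gene expression), in which reads come from the ends of polyadenylated transcripts. Each line was sampled in 15 groups of 3 replicates, 90 samples in all. Control cultures of each line were not given IFNγ (0 IU/mL) and were collected at 0, 1, 2 and 3 weeks. Naive cells, at 0 weeks, were given 50 IU/mL IFNγ for 2 h or 24 h. Chronic IFNγ cultures had 1, 2 or 3 weeks at 50 IU/mL and were harvested either with no restimulation (0 h) or once fresh IFNγ had acted for 2 h or 24 h. All cultures were grown in vitro, in serum-containing RPMI-1640, and were replated before harvest. The labels call the replicates triplicate experiments and do not say how far apart they were handled, so p-values measure the spread between these samples, which may be technical.

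LIF, IL-6 and IL-11 are secreted cytokines that signal through a shared receptor chain, Il6st. IL-6 first binds Il6ra and IL-11 first binds Il11ra1, and each complex then recruits Il6st, whereas LIF brings Il6st together with Lifr. Osmr pairs with Il6st to receive oncostatin M. None of these chains is itself a kinase: JAK kinases bound to them phosphorylate STAT3, which enters the nucleus and raises genes such as Socs3, whose product binds the receptor and damps the signal. LIF is best known for holding mouse embryonic stem cells in an undifferentiated state, and many carcinoma and melanoma cells secrete LIF or IL-6.

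Promoter windows of the 3 cytokine genes are shown because each of these genes had 1 window with a motif that no receptor window in the set held. Each window covers the 250 bases before a RefSeq transcript start in GRCm38.p6, written 5′ to 3′ on the strand of the gene, and capitals mark the AP-1 motif (TGANTCA) and the core of the CRE element (TGACG), on either strand. Lif is read from chr11:4257318-4257567 on the plus strand, Il6 from chr5:30012864-30013113 on the plus strand, and Il11, at an internal transcript start of the gene, from chr7:4778142-4778391 on the minus strand. The Il11 window shown was chosen for its match: the other one, at the annotated start of the gene (chr7:4782858-4783107), held none of the motifs searched.
Lif: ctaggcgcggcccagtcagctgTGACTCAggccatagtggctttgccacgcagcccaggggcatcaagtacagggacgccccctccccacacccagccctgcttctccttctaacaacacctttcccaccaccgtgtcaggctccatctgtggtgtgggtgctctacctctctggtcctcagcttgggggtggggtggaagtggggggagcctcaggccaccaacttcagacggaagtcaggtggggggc
Il6: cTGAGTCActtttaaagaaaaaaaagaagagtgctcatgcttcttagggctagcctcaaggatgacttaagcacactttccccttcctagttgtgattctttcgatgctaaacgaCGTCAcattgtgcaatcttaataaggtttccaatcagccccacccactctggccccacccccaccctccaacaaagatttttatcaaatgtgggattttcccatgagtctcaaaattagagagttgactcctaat
Il11: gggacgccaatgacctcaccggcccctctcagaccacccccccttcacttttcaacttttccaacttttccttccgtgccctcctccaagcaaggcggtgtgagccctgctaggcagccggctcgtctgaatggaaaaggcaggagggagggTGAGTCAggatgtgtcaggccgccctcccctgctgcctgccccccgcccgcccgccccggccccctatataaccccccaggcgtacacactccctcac

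Both strands were searched for 4 motifs. The AP-1 motif stood once in each of these 3 windows, 228 bases before the start of Lif, 249 before that of Il6 and 98 before that of Il11, and it was found in 6.75% of all 32851 RefSeq windows of this length. The STAT motif TTCNNNGAA, found in 7.02% of windows, and its form with STAT6-type spacing, found in 5.85%, had no match in any of the 11 windows of the 8 genes. The CRE core, found in 17.8% of windows, stood in Il6 135 bases before the start and in Il6ra 236 bases before it. These matches describe the letters of the windows and are not evidence that a factor bound there.

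In GRCm38, Lif lies on chr11:4257557-4272514, Il6 on chr5:30013114-30019981 and Il11 on chr7:4772373-4782859. Lifr and Osmr both lie on chromosome 15, at chr15:7090614-7197489 and chr15:6813577-6874969, and Il6st lies on chr13:112464070-112510086. Il6ra, on chr3:89864059-89913196, overlaps the antisense gene Gm42809. Il11ra1, on chr4:41699989-41769474, overlaps 6 annotated genes and has a close copy, Il11ra2, so its counts are uncertain.

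YUMM2.1 libraries held 274719 to 3161276 counts and CT26 libraries 295157 to 2205285, and edgeR's filter on low counts kept 9589 and 8516 genes. Of the 8 melanocyte markers, Sox10 was read in YUMM2.1 (28.4 CPM) and was at 0 in CT26, whereas Mc1r did not mark the line (21.3 CPM, against 30.9 CPM in CT26). The pigment genes were near 0 in YUMM2.1, where Pmel had 19 counts, Tyr 15, Mlana 1 and Tyrp1 0 over all 45 samples. In CT26 Pmel had 2 counts, Tyr 21, Mlana 0 and Tyrp1 1. Dct and Mitf did not mark YUMM2.1 either, at 0.902 and 1.98 CPM against 2.58 and 2.67 CPM in CT26. CT26 held Krt20 and Krt18, whereas the epithelial markers Epcam, Cdh1, Krt19 and Vil1 were at 0 in all 45 samples. Of the 7 leukocyte markers, Cd68 had 451 counts in YUMM2.1 (6.23 CPM) and 159 in CT26 (3.00 CPM), Lyz2, Ptprc and Csf1r had lower counts in both lines, and Adgre1 and Cd3e were at 0 in both. The endothelial marker Pecam1 was high in both lines, at 351 CPM for YUMM2.1 and 286 for CT26, with Cdh5 at 3 and 0 counts.

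The members differed widely in how many counts they drew. Over the 45 samples of YUMM2.1, Lifr drew 2927 counts, Il6st 1333, Lif 991, Il6ra 331, Il11ra1 258, Il11 122, Il6 27 and Osmr 1. Over the 45 samples of CT26, Lifr drew 13145 counts, Il6st 275, Lif 198, Il6ra 162, Il11 123, Il11ra1 23, Il6 2 and Osmr 1. These sums are not corrected for transcript length or for how well a 3′ end was captured, so they rank confidence in each gene rather than abundance. In YUMM2.1, 4 members passed the filter (Lif, Lifr, Il6st and Il6ra), and in CT26, 3 did (Lif, Lifr and Il6st). The remaining members are given by their raw counts.

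In YUMM2.1, Lif was read in all 45 samples, with 2 to 111 raw counts, and stood out 2 h after IFNγ was given again to chronically treated cells. In untreated 0-week cells, Lif had raw counts of 14, 4 and 4, a level of 4.99 ± 2.52 CPM (counts per 1000000 of the TMM-scaled library; SD, n = 3). In naive cells given IFNγ for 2 h it had counts of 14, 20 and 7 (8.62 ± 5.13 CPM), and at 24 h counts of 6, 5 and 28 (7.85 ± 3.50 CPM). Samples of these 3 groups overlapped, and neither naive comparison passed the test (log2 fold change with its SE of 0.70 ± 0.56 at 2 h, adjusted p = 1, and 0.74 ± 0.57 at 24 h, adjusted p = 0.886), where 0.24% and 0.855% of all tested genes were called higher. In bulk RNA, fewer cells of a kind and less RNA per cell cannot be told apart.

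After chronic exposure without restimulation, the samples overlapped the controls. At 1 week the counts were 29, 5 and 2 (7.17 ± 6.43 CPM) against 7, 18 and 20 in the control of the same week (5.67 ± 2.15 CPM). At 2 weeks they were 14, 13 and 16 (9.45 ± 1.97 CPM) against 8, 12 and 7 (8.19 ± 3.46 CPM). At 3 weeks they were 14, 10 and 2 (8.45 ± 1.49 CPM) against 11, 12 and 22 (5.67 ± 1.61 CPM). The groups overlapped at every week, and the log2 fold changes of 0.48, 0.20 and 0.61 did not pass the test (adjusted p = 0.950, 1.00 and 0.750), where 0.657%, 0.897% and 0.72% of tested genes were called higher.

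Lif rose within 2 h of fresh IFNγ on top of chronic exposure. At 1 week plus 2 h, Lif had counts of 94, 92 and 22, a level of 42.2 ± 13.3 CPM, with every sample (28.0 to 54.3 CPM) above the 3 samples without restimulation (2.75 to 14.6 CPM). Lif rose by a log2 fold change of 2.41 ± 0.46 (5.31-fold, adjusted p = 0.00124), in a comparison in which 0.501% of all tested genes were called higher. At 3 weeks plus 2 h the counts were 50, 111 and 35, a level of 43.7 ± 24.2 CPM, and the samples (25.05 to 71.1 CPM) again lay above those without restimulation (6.95 to 9.93 CPM). Lif rose by 2.31 ± 0.49 (4.96-fold, adjusted p = 0.00456), where 0.876% of tested genes were called higher. Of the 4 members tested, Lif was the one called in both comparisons. The study's methods describe a signature, which lists Lif, of genes raised by long IFNγ exposure over baseline, from which genes answering fresh IFNγ were removed. In the fit used here, Lif in YUMM2.1 met neither condition. Without restimulation at 3 weeks it differed from the 0-week control by 0.77 (adjusted p = 0.639), where 1.14% of tested genes were called higher. It was called in the 2 h steps at 1 and 3 weeks. The signature was drawn from these samples, and responses to fresh IFNγ were used to remove genes from it. Its listing of Lif is thus not independent of the step described here and is not evidence of it.

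At 2 weeks the step at 2 h was smaller. Counts were 41, 28 and 18 (22.4 ± 8.35 CPM), with samples at 16.6 to 32.0 CPM against 7.70 to 11.6 CPM without restimulation. This step of 1.23 ± 0.47 in log2 terms missed the threshold (adjusted p = 0.536, unadjusted p = 0.0111), where 0.417% of tested genes were called higher. Whether the response at 2 weeks differed from that at 1 or 3 weeks was not tested.

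**Figure D1:**
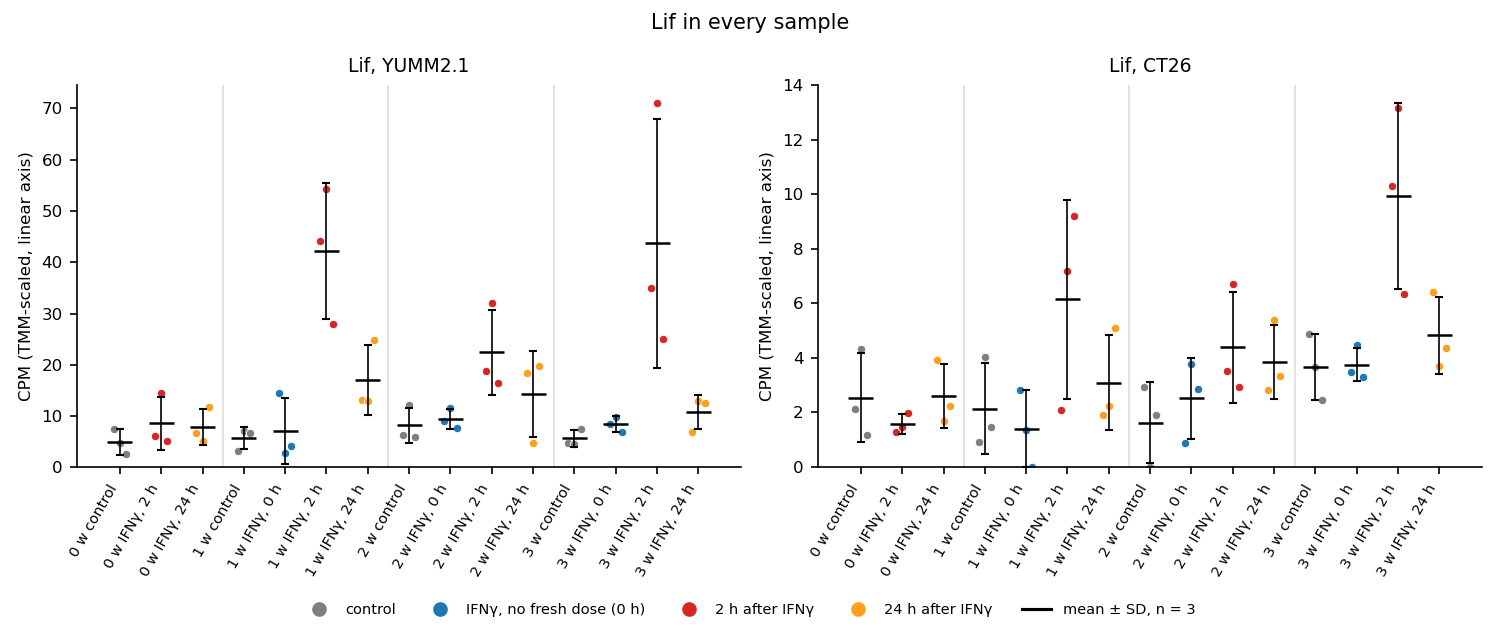
Lif in every sample of YUMM2.1 (left) and CT26 (right), in CPM on a linear axis that differs between panels, for the 15 groups in order of week and hour; points are samples, bars the mean ± SD of 3. In YUMM2.1 the groups at 1 and 3 weeks plus 2 h reach means of 42.2 and 43.7 CPM, and in CT26 the group at 3 weeks plus 2 h reaches 9.94 CPM.

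These increases leaned on few libraries. At 1 week, Lif was no longer called without replicate 2 of the unrestimulated group (1.89, adjusted p = 0.0668). At 3 weeks it was no longer called without replicate 1 of the unrestimulated group (2.26, adjusted p = 0.085) or without replicate 2 of the restimulated group (1.76, adjusted p = 0.1). Leaving out a replicate number in every group ended the call at 1 week for replicate 2 (1.67, adjusted p = 0.157) and at 3 weeks for replicate 1 (2.40, adjusted p = 0.14) and replicate 2 (1.87, adjusted p = 0.113).

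Restimulated cells were also set against control cells of the same age. The comparisons at 1 and 2 weeks were added after the first results had been seen, so their p-values are descriptive. Lif at 3 weeks plus 2 h exceeded the 3-week control by 2.92 ± 0.43 (7.58-fold, adjusted p = 3.32e-06), where 6.26% of tested genes were called higher. At 1 week plus 2 h its level exceeded that of the 1-week control by 2.89 ± 0.43 (adjusted p = 5.52e-06), where 3.11% were called higher. Both calls held without any single library of the groups compared. At 2 weeks plus 2 h the difference from the control was 1.44 ± 0.50 and did not pass (adjusted p = 0.191), where 1.56% were called higher, although Lif passed narrowly in a fit of only the groups compared (adjusted p = 0.0478).

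Chronically treated and naive cells were also compared at the same 2 h of IFNγ. The comparisons at 1 and 2 weeks, and the interactions at these weeks, were added after the first results had been seen. Their p-values are descriptive. Lif was higher after 3 weeks plus 2 h than in naive cells at 2 h by 2.38 ± 0.44 (5.20-fold, adjusted p = 0.000305), where 5.02% of tested genes were called higher. After 1 week plus 2 h it was higher by 2.35 ± 0.44 (adjusted p = 0.000627), where 1.49% were, and this call was lost without replicate 1 of every group (2.1, adjusted p = 0.128). After 2 weeks the difference of 1.37 ± 0.47 did not pass (adjusted p = 0.139), where 1.76% were, although it passed narrowly with no filter on low counts (1.34, adjusted p = 0.0481). These 3 comparisons share the naive 2 h samples, and those against the unrestimulated and control groups share the restimulated samples. The difference between the 2 h response of chronic cells and that of naive cells, tested as an interaction, was 1.71 ± 0.75 at 1 week, 0.53 ± 0.75 at 2 weeks and 1.61 ± 0.77 at 3 weeks, and none passed the test (adjusted p = 0.779, 1.00 and 0.733; unadjusted p = 0.0273, 0.482 and 0.0421), where 0.0521%, 0.0104% and 0.0417% of tested genes were called higher. The level of Lif at 2 h thus differed from naive cells, whereas a difference in the size of the step was not shown.

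At 24 h the level was lower than at 2 h, by a difference that passed the test at 3 weeks. The comparisons of 24 h with 2 h were added after the first results had been seen, so their p-values are descriptive. At 3 weeks, Lif had counts of 8, 21 and 22 at 24 h (10.8 ± 3.35 CPM), and every sample lay below those at 2 h. It fell between 2 h and 24 h by 1.98 ± 0.43 on the log2 scale (adjusted p = 0.00476), where 1.14% of tested genes were called lower. This call was lost without replicate 2 of the 2 h group (-1.41, adjusted p = 0.158) or replicate 1 of the 24 h group (-1.77, adjusted p = 0.0583), and without replicate 1 or replicate 2 of every group (adjusted p = 0.141 and 0.126). At 1 week the counts at 24 h were 13, 17 and 33 (17.04 ± 6.75 CPM), and the difference from 2 h of -1.32 ± 0.42 did not pass (adjusted p = 0.193, with 0.146% of tested genes called lower). It passed with no filter on low counts (adjusted p = 0.0247) and without replicate 3 of every group (-1.91, adjusted p = 0.0404). At 2 weeks they were 12, 4 and 46 (14.3 ± 8.34 CPM), with a difference of -0.53 ± 0.45 (adjusted p = 0.990, with 0.0521% called lower). Against the unrestimulated cells of the same week, the differences at 24 h of 1.09, 0.70 and 0.33 at 1, 2 and 3 weeks did not pass (adjusted p = 0.501, 0.991 and 1), where 1.12%, 0.532% and 0% of tested genes were called higher.

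In CT26, Lif followed at counts too low for most comparisons to decide. It was read in 43 of 45 samples, with at most 13 counts. Untreated 0-week cells had counts of 3, 7 and 2 (2.54 ± 1.62 CPM), and naive cells at 2 h had counts of 2, 2 and 3 (1.58 ± 0.367 CPM). At 3 weeks the counts were 6, 5 and 5 in the control (3.66 ± 1.22 CPM) and 4, 4 and 1 in IFNγ without restimulation (3.75 ± 0.619 CPM). At 3 weeks plus 2 h they were 13, 12 and 5 (9.94 ± 3.42 CPM), with every sample above those of the other 4 groups named here. Lif was higher after 3 weeks plus 2 h than in naive cells at 2 h by 2.60 ± 0.62 (6.06-fold, adjusted p = 0.00395), where 4.29% of tested genes were called higher. The call held without any single library of the 2 groups, but was lost when replicate 1 of every group was left out (2.47, adjusted p = 0.113) or replicate 2 was (2.35, adjusted p = 0.0989). In a fit of only the groups compared, Lif did not pass the filter on low counts and could not be tested. Its highest CT26 samples were at 3 weeks plus 2 h (up to 13.2 CPM) and 1 week plus 2 h (up to 9.19 CPM). No other group exceeded 6.72 CPM. Lif thus entered the test through restimulated samples, among them those of the group called here, and the call is not independent of that. In the 5 alternative fits that tested it, no filter among them, the adjusted p was 0.0026 to 0.0079.

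No other comparison called Lif in CT26. The steps at 2 h were 1.59 ± 0.72 at 1 week (counts 4, 1 and 0 before, 3, 8 and 11 after), 0.76 ± 0.61 at 2 weeks and 1.37 ± 0.62 at 3 weeks (adjusted p = 0.546, 0.874 and 0.652), where 0.364%, 0.294% and 0.0117% of tested genes were called higher. Against the 3-week control the restimulated cells differed by 1.49 ± 0.55 (adjusted p = 0.0829), where 4.36% were called higher. The interaction at 3 weeks was 2.02 ± 0.94 (adjusted p = 0.907, unadjusted p = 0.0378), where 0.0117% were. The summed level of the 8 epithelial markers in CT26 moved with Lif at 3 weeks. It went from 59.7 CPM (56.3 to 64.6) without restimulation to 119 CPM (110 to 123) at 2 h. At 2 weeks it went from 65.5 to 101 CPM. At 1 week it did not move with Lif, at 61.3 and 59.9 CPM, where Lif went from 1.39 to 6.15 CPM. Naive cells at 2 h had 65.8 CPM of these markers, and Epcam, Cdh1, Krt19 and Vil1 were at 0. The part of the marker level in the result was not tested.

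The lines did not differ detectably in these effects. The difference of Lif between chronic and naive cells at 2 h was 0.30 lower in log2 terms in YUMM2.1 than in CT26 (-0.30 ± 0.72, adjusted p = 0.994), and that of the naive 2 h response was 1.35 ± 0.93 (adjusted p = 1). With these errors, differences of more than a log2 unit either way could have been missed.

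**Figure D2:**
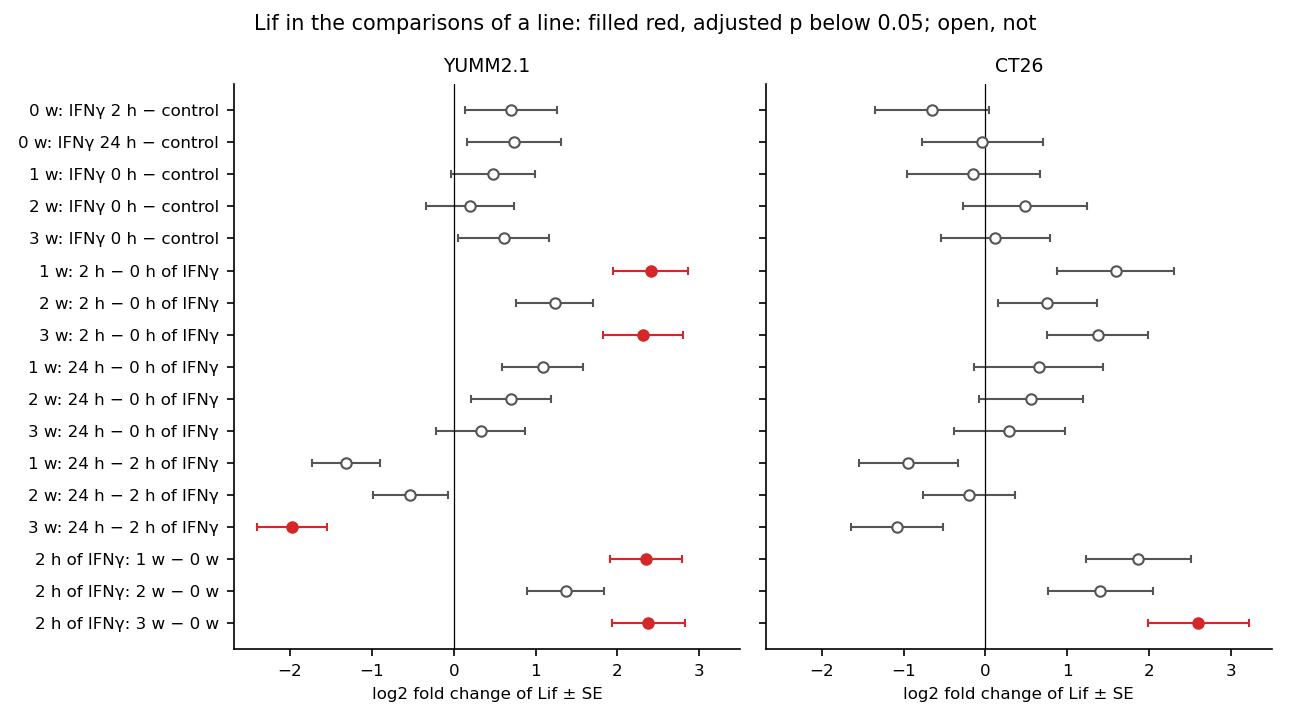
Log2 fold change of Lif with its standard error (horizontal axis) in 17 comparisons (rows) in YUMM2.1 (left) and CT26 (right), filled red where the adjusted p was below 0.05. In YUMM2.1 the 2 h steps at 1 and 3 weeks lie at 2.41 and 2.31, and the comparison of 3 weeks with naive cells at 2 h lies at 2.38 in YUMM2.1 and 2.60 in CT26.

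Ordered by mean level, the 3 highest groups for Lif in YUMM2.1 were 3 weeks, 1 week and 2 weeks plus 2 h, followed by 1, 2 and 3 weeks plus 24 h, and the 0-week control was lowest. The highest mean was 8.75 times the lowest, although neighbours in this order overlapped in all 14 pairs. In CT26 the highest group was 3 weeks plus 2 h and the lowest 1 week without restimulation, 7.16-fold apart, and again all 14 neighbouring pairs overlapped.

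Il6, which gives the family its name, was read at very few counts. In YUMM2.1 it drew 27 counts, spread over 14 samples. The most came at 1 week plus 2 h, with 2, 6 and 1 counts, and the 3-week plus 2 h samples had 0, 3 and 0. Untreated 0-week cells and naive cells at 2 h had 0 counts in all 6 samples. In CT26, 2 counts were read in all, in 2 of 45 samples. Il6 was not tested in either line, and no difference could be read at this depth.

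Il11 was read at similar, low counts in both lines, 122 in YUMM2.1 and 123 in CT26, with at most 10 and 11 in a sample. In YUMM2.1 the 0-week control had 1, 0 and 2 counts, naive cells at 2 h had 5, 1 and 4, and the 2-week plus 2 h group, with the highest mean level, had 4, 6 and 4 (4.12 ± 2.54 CPM). The 3-week control, which had no IFNγ, had 4, 10 and 5. In CT26 the highest mean was that of the 1-week control, with 5, 6 and 4 counts (3.51 ± 1.39 CPM). Group means therefore spanned 0.607 to 4.12 CPM in YUMM2.1, and in CT26 0.569 to 3.51 CPM, with controls at both ends of the CT26 range. Il11 did not pass the filter and was not tested. Intervals and limits of counts cover counting error only.

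**Figure D3:**
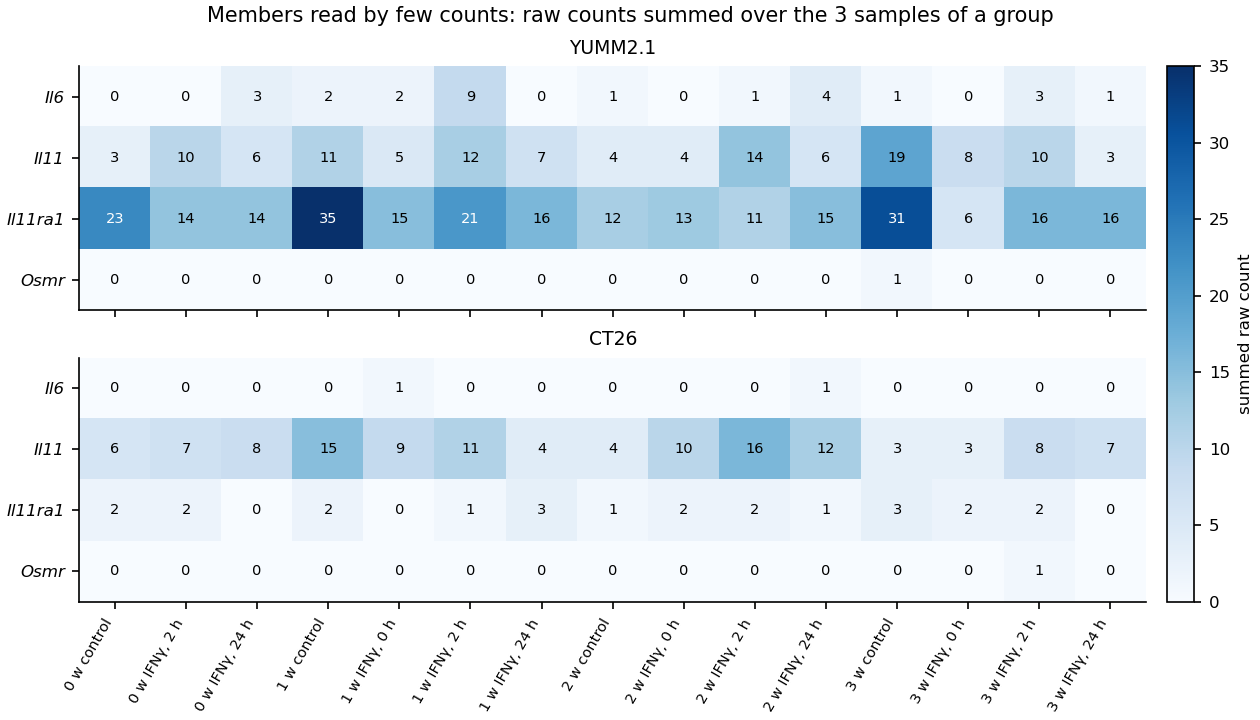
Raw counts of Il6, Il11, Il11ra1 and Osmr summed over the 3 samples of each of the 15 groups in YUMM2.1 (top) and CT26 (bottom); darker blue marks a higher sum. Il6 reaches 9 counts at 1 week plus 2 h in YUMM2.1 and at most 1 in CT26, and Osmr has 1 count in each line.

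Among the receptors, Lifr, the chain that LIF engages, gave the most counts and the clearest values. In untreated 0-week cells YUMM2.1 held 46.9 ± 7.77 CPM of it (counts 72, 45 and 74), and CT26 held 236 ± 20.7 CPM (counts 369, 365 and 377). All CT26 samples lay above all YUMM2.1 samples. In the fit over both lines Lifr was lower in YUMM2.1 by 2.54 ± 0.16 on the log2 scale (5.82-fold, adjusted p = 4.68e-24), where 46% of all tested genes differed between the lines.

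After 2 weeks of IFNγ, Lifr was lower in YUMM2.1 than in its control. Counts were 50, 34 and 60 after 2 weeks of IFNγ (30.5 ± 1.79 CPM) and 66, 57 and 67 in the 2-week control (56.0 ± 2.62 CPM), and the samples did not overlap (28.9 to 32.4 against 53.0 to 57.8 CPM). Lifr fell by 0.87 ± 0.20 on the log2 scale (1.83-fold, adjusted p = 0.00791), where 0.219% of tested genes were called lower. Of the 4 members tested, Lifr was the one called. The call was lost without replicate 3 of the IFNγ group (-0.84, adjusted p = 0.0658), with no filter on low counts (-0.85, adjusted p = 0.0568), and when any 1 replicate number was left out in every group (adjusted p = 0.142 to 0.172).

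The control cultures of YUMM2.1 moved as well. The 2-week control had the highest mean level of Lifr of the 15 groups, and the 2-week IFNγ group had the lowest. Against the 0-week control, the 2-week IFNγ group differed by -0.60 and did not pass (adjusted p = 0.144), where 0.667% of tested genes were called lower. At 3 weeks the control stood at 31.6 ± 5.52 CPM, close to the 30.9 ± 4.26 CPM of the cells in IFNγ, so that the 2 groups differed by -0.01. Against the 0-week control, the 3-week control differed by -0.54 ± 0.19 (adjusted p = 0.274) and the 3-week IFNγ group by -0.55 ± 0.22 (adjusted p = 0.211). Neither passed, where 0.271% and 1.32% of tested genes were called lower. At 1 week the control and IFNγ groups stood at 49.3 ± 5.25 and 53.9 ± 8.69 CPM. The summed level of the 7 leukocyte markers in the 3-week control of YUMM2.1 was 14.1 CPM (8.90 to 19.4) and in the 3-week IFNγ group 14.98 CPM (9.70 to 24.8), against 5.79 CPM (3.79 to 8.48) at 0 weeks. Cd68 gave most of the counts of this list in the line and Adgre1 and Cd3e were at 0, and its part was not tested.

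In CT26 Lifr was not called in any comparison. After 2 weeks of IFNγ it stood at 238 ± 20.6 CPM against 291 ± 7.41 in the control (-0.29 ± 0.13, adjusted p = 0.396), and after 3 weeks at 196 ± 14.3 against 247 ± 20.3 (-0.34 ± 0.14, adjusted p = 0.117), where 0.74% and 3.79% of tested genes were called lower. The comparison at 3 weeks passed without replicate 3 of every group (-0.46, adjusted p = 0.027). It passed in 0 of 6 alternative fits that kept all replicate numbers, where the difference ran from -0.38 to -0.15. By library totals the 3-week levels were 212 ± 5.80 CPM in IFNγ and 235 ± 20.9 CPM in the control. At 2 weeks the difference ran from -0.29 to -0.20 over these fits and also passed in 0 of 6. The largest change, from 246 ± 32.1 CPM at 1 week plus 2 h to 182 ± 19.7 CPM at 24 h, was -0.44 ± 0.13 (adjusted p = 0.174, where 0.0939% of tested genes were called lower) and passed with DESeq2 (adjusted p = 0.0389) and with library totals alone (adjusted p = 0.0335). Over the 33 comparisons within CT26, Lifr had an unadjusted p under 0.05 in 8 and was called by edgeR in 0 and by DESeq2 in 1. In these 33 comparisons, 0% to 10.3% of all tested genes were called.

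Il6st, the shared signalling chain, was present in every sample of both lines. In YUMM2.1 its group means ran from 12.0 to 26.8 CPM, and untreated 0-week cells had counts of 20, 13 and 22 (13.6 ± 2.50 CPM). In CT26 they ran from 3.20 to 8.29 CPM, and untreated cells had counts of 4, 11 and 6 (4.38 ± 2.13 CPM). Il6st was thus higher in untreated YUMM2.1 than in CT26, by 1.38 ± 0.46 (2.60-fold, adjusted p = 0.0100), opposite in sign to Lifr. This call was lost without replicate 1 (1.32, adjusted p = 0.087) or replicate 3 (1.14, adjusted p = 0.0898) of every group. With 2 of 4 tested members differing between the lines, their share was near that of all genes.

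Within a line, Il6st was called in 0 of 33 comparisons by edgeR and by DESeq2, and had an unadjusted p under 0.05 in 2 in YUMM2.1 and in 1 in CT26. Of all tested genes, 0% to 10.7% were called in the comparisons of YUMM2.1. The largest of these was the 1-week plus 2 h group of YUMM2.1, whose counts of 49, 72 and 4 (23.5 ± 18.7 CPM) spread so widely that the difference of 1.09 ± 0.39 from the control did not pass (adjusted p = 0.0938). Without replicate 3 of that group Il6st passed (1.43, adjusted p = 0.0164), as it did with no filter on low counts (1.06, adjusted p = 0.0315), whereas without replicate 2 of every group the difference was 0.27 (adjusted p = 0.885). In CT26 the 3-week plus 2 h group stood at 6.85 ± 0.682 CPM against 3.20 ± 0.245 in the 3-week control, and the difference of 1.06 ± 0.50 did not pass (adjusted p = 0.179).

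Il6ra, the chain specific for IL-6, was read in all 45 samples of YUMM2.1, with 1 to 18 counts and group means of 2.36 to 8.81 CPM, the highest at 1 week plus 24 h (counts 11, 12 and 8) and the lowest at 2 weeks plus 2 h (6, 3 and 1). It passed in 0 of 33 comparisons by edgeR and by DESeq2, with 1 at an unadjusted p under 0.05, the difference of 1.27 ± 0.58 between 24 h and 2 h at 2 weeks (adjusted p = 0.826). In CT26 Il6ra had 0 to 11 counts and was not tested. Untreated cells of the lines gave like levels, 3.43 ± 1.17 CPM in YUMM2.1 and 2.95 ± 2.31 in CT26.

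Il11ra1, the chain specific for IL-11, was read in 43 of 45 samples of YUMM2.1, with group means from 1.73 to 5.56 CPM, and in 17 of 45 samples of CT26, with at most 3 counts. Untreated YUMM2.1 had 9, 5 and 9 counts, whereas untreated CT26 had 0, 0 and 2. Osmr, the oncostatin M receptor, had 1 count in each line, in the 3-week control of YUMM2.1 and at 3 weeks plus 2 h in CT26, and 0 counts in the other 44 samples of each. A count of 0 over a whole line would allow up to 0.0429 CPM in YUMM2.1 (0.0531 CPM for CT26), so any message of Osmr was at or near the limit of what was readable.

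**Figure D4:**
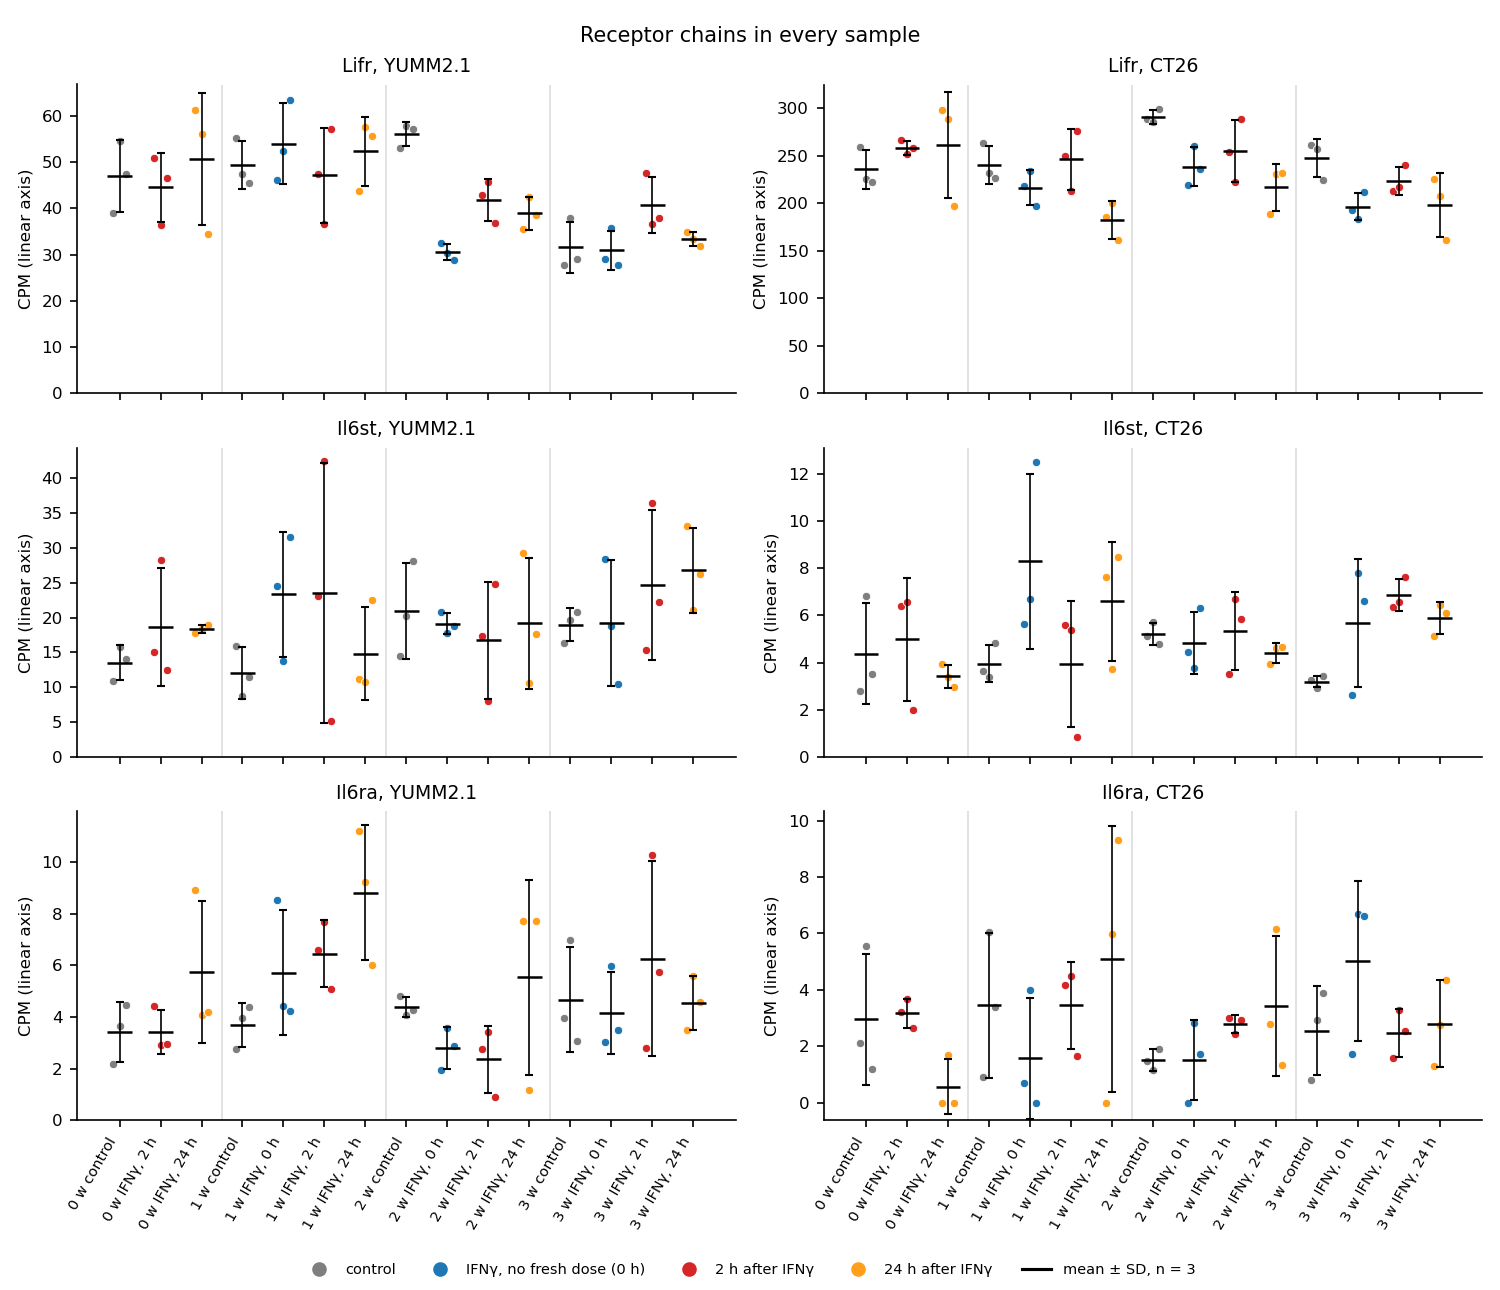
Lifr, Il6st and Il6ra (rows) in every sample of YUMM2.1 (left) and CT26 (right), in CPM on linear axes that differ between panels; points are samples, bars the mean ± SD of 3. Lifr falls from 56.0 to 30.5 CPM between control and IFNγ at 2 weeks in YUMM2.1, and stands between 182 and 291 CPM in CT26.

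The genes that stand around the receptors were read from lists. Clcf1, a further cytokine of the family, passed the filter in YUMM2.1, whereas none of the 9 further cytokines listed passed it in CT26 and none of 4 further receptor genes passed in either line. Clcf1 was higher at 3 weeks plus 2 h than in the 3-week control of YUMM2.1, by 1.28 ± 0.37 (adjusted p = 0.0213), alongside Lif, where 6.26% of all tested genes were called higher. In untreated cells it was higher in YUMM2.1 than in CT26, by 2.66 ± 0.70 (adjusted p = 0.00107), where 46% of tested genes differed.

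Among the kinases, STATs and adaptors that carry the signal, Stat3, the main effector of the family, was higher at 3 weeks plus 2 h than in the 3-week control of YUMM2.1, by 2.92 ± 0.35 (adjusted p = 1.70e-08), where 6.26% of tested genes were called higher. In the 2 h step at 3 weeks Stat3 rose by 1.92 ± 0.38 (adjusted p = 0.00182) and was the 1 gene called among the 10 of this list that passed the filter, where 0.876% of all tested genes were called higher. Between 2 h and 24 h it fell by 1.77, where 1.14% were called lower. In CT26, Stat3 was higher at 3 weeks plus 2 h than in the control by 2.26 ± 0.56 (adjusted p = 0.00795), where 4.36% were called higher.

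Of 9 inhibitors, 7 passed the filter in YUMM2.1 and 6 passed it in CT26. At 3 weeks plus 2 h against the control in YUMM2.1, Socs1 (1.68) and Socs3 (1.58 ± 0.46, adjusted p = 0.0215), which switch off cytokine receptors, were higher, and the phosphatase gene Ptpn2 fell by 0.66, so that 2 of 7 were called higher and 1 lower, against 6.26% and 4.41% of all tested genes. Socs3 was also higher at 1 week plus 2 h than in the 1-week control, by 2.39 ± 0.51 (adjusted p = 0.00190), where 3.11% were called higher, and fell by 1.85 between 2 h and 24 h at 3 weeks, where 1.14% were called lower. In CT26, Socs1 was higher at 1 week plus 2 h than in the control, by 3.01 ± 0.81 (adjusted p = 0.0249), where 2.52% were called higher. These comparisons with controls combine chronic and fresh IFNγ. In the 2 h steps at 1, 2 and 3 weeks and in naive cells at 2 h, no inhibitor was called in either line. There, 0.0117% to 0.876% of all tested genes were called higher. At 2 weeks plus 2 h against the control in YUMM2.1, 0 of 7 were called, where 1.56% were called higher.

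Of 22 genes known as STAT3 targets, 10 passed the filter in YUMM2.1 and 12 passed it in CT26. Junb, an AP-1 subunit that answers many stimuli, was the most regular of them. Its 2 h step was 3.07, 2.03 and 1.65 at 1, 2 and 3 weeks in YUMM2.1, and it was the one target of 10 called at 1 and 2 weeks, where 0.501% and 0.417% of all tested genes were called higher. At 3 weeks Myc was called beside it (0.87), 2 of 10 against 0.876% of all tested genes. In CT26 Junb was called in the 2 h step at 2 weeks (1.37), 1 of 12 against 0.294% of all tested genes. At 3 weeks plus 2 h against the control in CT26, Junb (0.94), Mcl1 (1.54) and Klf4 (1.54) were higher, 3 of 12 against 4.36%. The lists were chosen with these results known, so these shares are a description. Stat3, Socs1 and Socs3 also act in or answer interferon signalling itself, and which cytokine moved them was not tested.

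**Figure D5:**
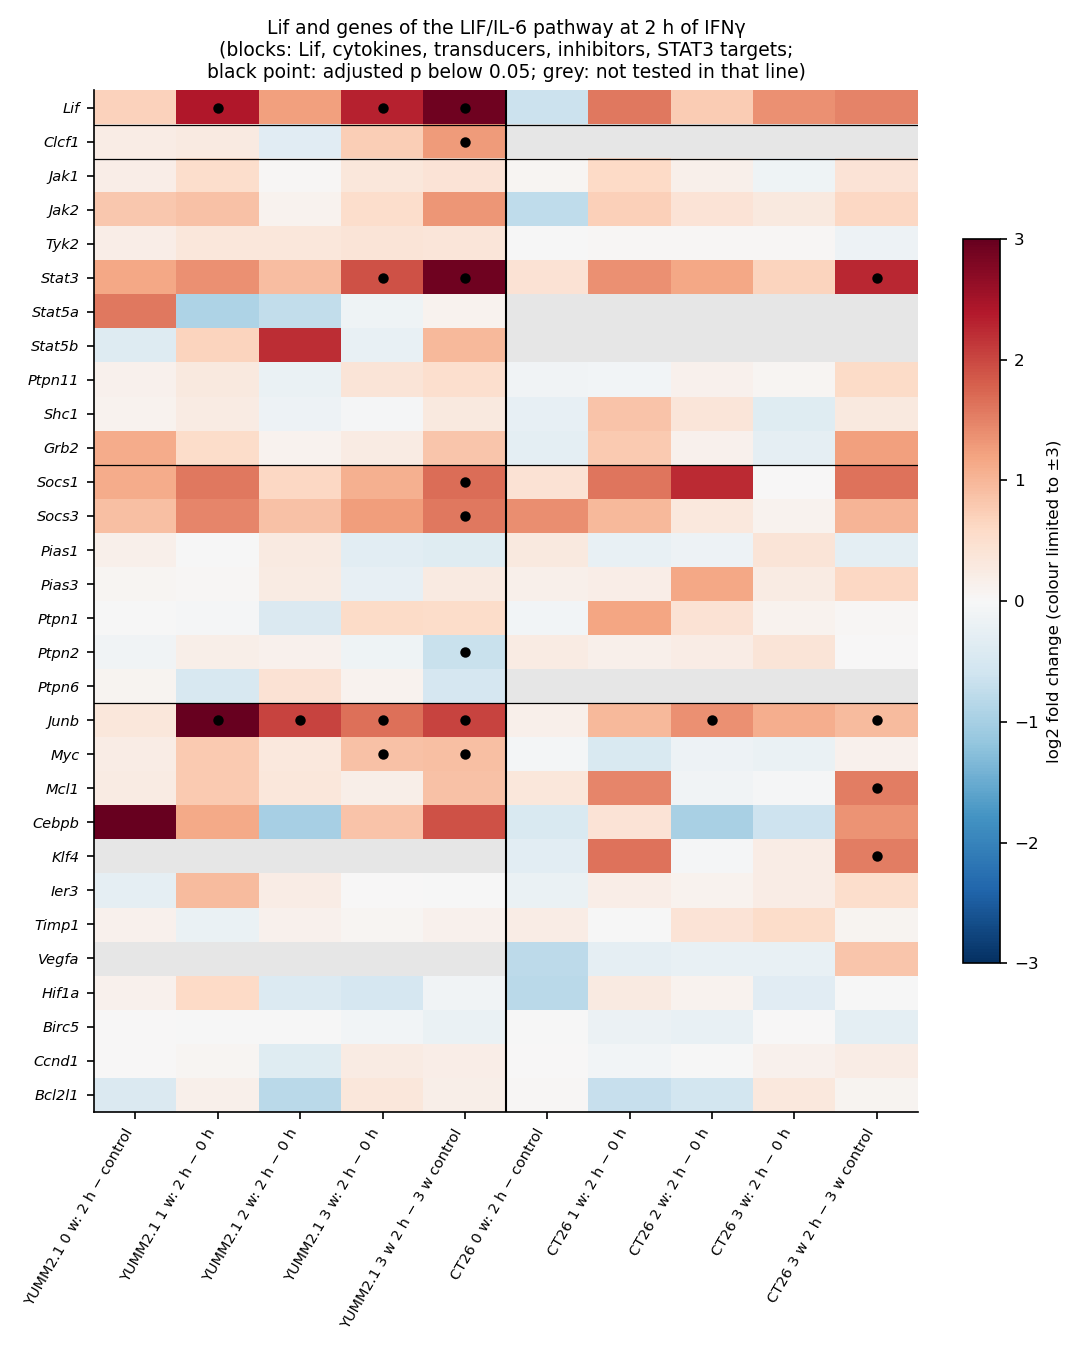
Log2 fold change of Lif and of tested genes from the cytokine, transducer, inhibitor and STAT3 target lists (rows) in 5 comparisons of each line (columns), with red higher and blue lower; a black point marks an adjusted p below 0.05 and grey a gene not tested. Lif, Stat3 and Junb carry points at 3 weeks in YUMM2.1 (2.31, 1.92 and 1.65 in the 2 h step), whereas most other genes carry none.

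The genes whose group means most resembled Lif over the 15 groups of YUMM2.1 were Junb (r = 0.927 on log2 CPM), Pmepa1 (0.922), Errfi1 (0.910), Stat3 (0.901) and Cxcl10 (0.896). In CT26 they were 9330188P03Rik (0.893), Otud4 (0.891), Ptgs2 (0.887), Bptf (0.881) and B4galt5 (0.876), so that the 2 lists shared no gene. For Lifr they were Gm37144 (0.929), Fn1 (0.892) and Cep97 (0.846) in YUMM2.1 and Usp19 (0.945), Nlrc3 (0.944) and Gm15950 (0.939) in CT26. Il6st was most like Kctd15 (0.8) in YUMM2.1 and Tgfbr3 (0.773) in CT26, and Il6ra most like Acap3 (0.806) in YUMM2.1. Among the members, r between Lif and Lifr was -0.00819 in YUMM2.1 and -0.302 in CT26, and between Lif and Il6st 0.198 and 0.0352. These values describe 15 points that share libraries and depth, and the closest genes are high by selection.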

How the data were processed

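RNA of 90 cultures, 45 of YUMM2.1 and 45 of CT26, was profiled by 3′ digital gene expression. The deposited values are gene-level counts, which the authors made by quantifying reads with Salmon 0.13.1 (per the submitters' processing notes, which also name mm10) and summarising them by tximport; whether molecular identifiers were collapsed is not given in the sources used here. Of the 53697 identifiers, 53668 were matched to symbols. Samples were grouped by line, week, treatment and hour from the labels. The study left out some samples that it did not name, so all 90 were kept. Replicates within each group differed by more than sampling noise.

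Genes were filtered with filterByExpr, scaled by TMM and tested in each line over its 15 groups with edgeR 4.0.16 (quasi-likelihood test, R 4.3.3), with Benjamini-Hochberg adjustment over all tested genes and a threshold of 0.05. Both lines were fitted together for the 4 comparisons between lines. Of the 33 comparisons in each line, 24 were planned and 9 were added after the data had been seen. The added ones compared 24 h with 2 h of restimulation at 1, 2 and 3 weeks. The others, at 1 and 2 weeks, set cells restimulated for 2 h against the control and against naive cells at 2 h, or took the interaction. The p-values of added comparisons are descriptive. The script was tested on simulated data. Overlap or separation of samples is described for single genes, and its share over all genes was not counted. The SE given with a log2 fold change was back-calculated from the test, as the absolute change over the square root of its F statistic. CPM is the count in a TMM-scaled library set to 1000000 counts, and log2 CPM for likeness used a prior count of 2. Alternatives were DESeq2 1.42.0, library totals, no filter, only the groups compared, a replicate block, leaving out replicates, single libraries or shallow libraries, and a prior count of 0.5. The 8 members were always named. Pathway genes were named where they passed the threshold, at most 4 to a list and comparison, and the genes most like a member were the top 5 for Lif and the top 3 for others. The members and lists were chosen with earlier results of these data known. Promoters were to be read for members passing the filter and were read for all 8. Total counts per sample, from 274719 to 3161276, limit the precision of the low members. Some genes of the lists are not reported here.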

Additional observations from a re-analysis of the deposited data

How the results depend on the processing

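Removing the filter on low counts ended the Lifr call at 2 weeks in YUMM2.1 (0 members called, -0.85, adjusted p = 0.0568). Fitting only the groups compared left 0 members called for 3 weeks against naive cells at 2 h in CT26, since Lif then failed the filter. With a prior count of 0.5, 2 of the 5 genes most like Lif in CT26 remained. Over the fits that left out a replicate number or a single library, the number of members called ran from 0 to 1 for IFNγ against control at 2 weeks in YUMM2.1, for the 2 h step at 1 and at 3 weeks in YUMM2.1, for IFNγ against control at 3 weeks in CT26 (1 without replicate 3, Lifr) and for 3 weeks against naive cells at 2 h in CT26, and from 1 to 2 between the untreated lines, where Il6st was lost without replicate 1 or 3. In YUMM2.1, Lif was also lost at 1 week against naive cells at 2 h (without replicate 1) and from 2 h to 24 h at 3 weeks (without replicate 1 or 2), and it was gained at 2 weeks against naive cells at 2 h and from 2 h to 24 h at 1 week with no filter, and at 2 weeks plus 2 h against the control in a fit of only the groups compared.

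Some differences of Lif that did not pass the test turned direction when a replicate was left out. In YUMM2.1 the naive 24 h response ran from -0.18 to 1.41, IFNγ against control at 1 week from -1.13 to 1.17, the interaction at 2 weeks from -0.16 to 0.95 and 24 h against 2 h at 2 weeks from -1.13 to 0.11. In CT26 the naive 2 h response of Lif ran from -1.19 to 0.011. The causes were not tested. Leaving out the shallow libraries changed no call of a member.

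Replicate numbers did not pair the samples, since same-numbered deviations had a median r of 0.000935 in YUMM2.1 and 0.0119 in CT26, and all 3 pairs were above 0.1 in 1 of 29 comparisons of each line. With the replicate block, Lif in YUMM2.1 was higher by 2.38 in the 2 h step at 1 week (adjusted p = 0.00202) and by 2.28 at 3 weeks (adjusted p = 0.00636), Lif in CT26 was higher by 2.58 at 3 weeks than in naive cells at 2 h, and Lifr differed by -0.87 at 2 weeks. The block changed no call of a member. Depth limited Il6, Il11, Il11ra1 and Osmr, which could not be tested in either line, and Il6ra in CT26.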
